A study of Homo sapiens with 6 samples.

Results

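The ANKRD36 family comprises ANKRD36, ANKRD36B and ANKRD36C, related genes on chromosome 2 that were followed here in SUM159 oncospheres with and without ectopic SCGB3A1. The members were all probe sets (groups of array probes summarised to 1 value) annotated to 1 of these 3 genes, which gave 4 of the 54613 probe sets tested, for 3 of the 19775 genes with a probe set of their own: 2 for ANKRD36 and 1 each for ANKRD36B and ANKRD36C. None of the 4 carried a second gene symbol. The family was chosen by the difference of its ANKRD36B probe set between the SCGB3A1 and control arrays, which had been seen in an earlier reading of these data. The differences of its members between the 2 groups are therefore given as a description, with no test.

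SUM159 is an established human breast cancer cell line. Both groups had been infected with a pLVX-puro lentivirus, kept under puromycin selection (2 µg/ml, 7 days), and then grown for 5 days as floating spheres in ultra-low attachment plates seeded at 12500 cells/ml. Control cells carried the empty vector (3 arrays), and SCGB3A1 cells carried human SCGB3A1, a small secreted protein that the study followed as a factor made by the endothelium of metastatic lungs (3 arrays). The comparison asked how the cancer cells respond to that factor. The arrays are labelled as biological replicates, but separate infections are not stated for them, so the spread between arrays may be partly technical.

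Proteins of this family carry ankyrin repeats, short helical units that stack into a surface for binding other proteins, and little is established about what they do in cells. The genes arose by duplication and lie in a stretch of chromosome 2 rich in duplicated sequence, so their transcripts are alike. Probes made for 1 copy can bind RNA of the others. The suffix _x_at, which 1 ANKRD36 probe set bears, marks probe sets in which some probes match unrelated or related transcripts as well. How far each probe set reads its named gene alone was not tested.

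The likeness of the copies can be seen in the bases just upstream of their annotated starts, shown here for the members found in the RefSeq promoter table (build GRCh38.p14). These were ANKRD36B at chr2:97589878-97590127 and ANKRD36C at chr2:95991825-95992074, both on the minus strand, each with the 250 bases before the start. The windows are offset by 40 bases against each other, and the capital marks the base at which the shared part differs.
ANKRD36B: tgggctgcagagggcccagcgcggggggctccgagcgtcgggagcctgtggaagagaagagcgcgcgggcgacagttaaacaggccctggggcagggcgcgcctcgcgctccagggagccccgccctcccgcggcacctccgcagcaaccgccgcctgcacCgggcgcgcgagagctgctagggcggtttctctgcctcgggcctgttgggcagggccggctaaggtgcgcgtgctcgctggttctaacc
ANKRD36C: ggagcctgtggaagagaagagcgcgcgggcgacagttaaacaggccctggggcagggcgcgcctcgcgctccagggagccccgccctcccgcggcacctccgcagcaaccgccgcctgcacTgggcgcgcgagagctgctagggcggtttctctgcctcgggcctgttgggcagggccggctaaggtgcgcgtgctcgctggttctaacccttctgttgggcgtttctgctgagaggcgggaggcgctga
Over the 210 positions that both windows hold, 209 bases were identical (99.5%). Of the 231 overlapping stretches of 20 bases in the ANKRD36B window, 171 also stood in the ANKRD36C window. Among the 35116 genes of the table, ANKRD36C was the 1 other gene that shared any of these stretches as written. Their reverse complements were not searched. ANKRD36 has no entry there, so its upstream bases were not compared. The G and C content was 73.6% for ANKRD36B and 70.4% for ANKRD36C, above that of 86.9% and 80.1% of all windows of the same length. Each window held GGGCGG, the core of a GC box, at 2 places when both strands were searched, as did 42.6% of all windows at 1 place or more. CCAAT (in 32.0% of windows), TATAAA (10.7%) and CACGTG (6.34%) were searched on both strands and had 0 matches in either window. A match is a description of the sequence and shows no binding.

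The array values are on a log2 scale after robust multiarray average (RMA) normalization, so a difference of 1 is a doubling of signal. The labels were checked first. The SCGB3A1 probe set (230378_at) read 6.80, 6.89 and 7.05 in control replicates 1 to 3 and 6.60, 6.92 and 6.71 in the arrays labelled SCGB3A1. That is no rise (difference -0.17 ± 0.10 SE, limma adjusted p = 0.83). Per the paper, overexpression of SCGB3A1 in SUM159 cells was checked by qPCR, though this is not stated for these cultures. Whether the probes of 230378_at cover the sequence in the vector is unknown here, so every direction holds for the arrays as labelled. Control replicate 2 stood apart, with correlations of 0.989 to 0.993 with the other arrays against 0.993 to 0.996 among those. Levels of different probe sets depend on their probes, so the markers of the cell line are given only beside the median probe set mean of 6.91. The markers of SUM159 lay above it, with control means of 14.42 for VIM, 14.14 for FN1, 12.63 for CD44, 10.95 for AXL and 9.72 for EGFR. Of the luminal and epithelial markers, EPCAM (6.19) and PGR (6.35) lay below it and ESR1 (7.16) and KRT18 (11.44) above. Among markers of other cell types, CDH5 (6.18) and CD14 (6.47) lay below it and PTPRC (7.78), PECAM1 (8.28) and the collagen COL3A1 (14.18) above. Of these 14 markers, 0 passed limma's adjusted p of 0.05 between the groups, and 1 had an unadjusted p under 0.05, EGFR.

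ANKRD36B had the most negative difference of all 54613 probe sets. Its probe set 220940_at read 8.58, 8.86 and 8.63 in control replicates 1 to 3 and 7.98, 7.81 and 8.17 in SCGB3A1 replicates 1 to 3. The groups did not overlap: the lowest control lay 0.41 above the highest SCGB3A1 array. The control mean was 8.69 ± 0.15 (SD, n = 3) and the SCGB3A1 mean 7.99 ± 0.18 (SD, n = 3), a difference of -0.70 ± 0.10 (SE from limma), or a 1.63-fold lower signal. In bulk RNA, fewer cells that express a gene and less RNA per cell cannot be told apart. The gene had been noticed by the criteria of the study's signature (a log2 difference beyond 0.5, p under 0.05 and adjusted p under 0.25), so this is the value that chose the family, and nothing is supported with it.

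ANKRD36, the copy next to ANKRD36B on the chromosome, is read by a pair of probe sets that differed in size. The first, 214723_x_at, read 7.72, 7.90 and 7.78 in control replicates 1 to 3 and 7.02, 7.19 and 7.47 in SCGB3A1 replicates 1 to 3. The lowest control lay 0.25 above the highest SCGB3A1 array, SCGB3A1 replicate 3. The means were 7.80 ± 0.09 and 7.23 ± 0.23 (SD, n = 3 each), and the difference of -0.57 ± 0.11 (SE) was the sixth most negative of all probe sets. It was the largest difference among the members that had not been noticed by the criteria, which this probe set missed narrowly and only by its adjusted p. A difference below -0.5 was found for 0.0256% of all probe sets. The same contrast led to the family, and how far 214723_x_at reads ANKRD36B RNA was not tested. Nothing is therefore read from its difference or from that share.

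The other ANKRD36 probe set, 238464_at, did not separate the groups. It read 6.86, 6.67 and 6.62 in control replicates 1 to 3 and 6.57, 6.41 and 6.66 in SCGB3A1 replicates 1 to 3. SCGB3A1 replicate 3 lay above control replicate 3, so the groups overlapped. The difference was -0.17 ± 0.09 (SE), and it moved to -0.094 without control replicate 1 and to -0.097 without SCGB3A1 replicate 2. With the values of both ANKRD36 probe sets averaged, the gene read 7.26 in control and 6.89 in SCGB3A1 arrays, a difference of -0.37 with groups that did not overlap.

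ANKRD36C, the copy that lies before the other two along the chromosome, was measured near the floor of the table. Its probe set 1555898_at read 6.22, 6.31 and 6.34 in control replicates 1 to 3 and 6.14, 6.16 and 6.02 in SCGB3A1 replicates 1 to 3. The groups were separated by 0.064, and the difference was -0.19 ± 0.07 (SE). Only 10.7% of probe sets had a lower mean. RMA can make differences between such low values too small, and whether it did so for this probe set was not tested. Without detection calls it is not known here whether ANKRD36C was above background.

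**Figure D1:**
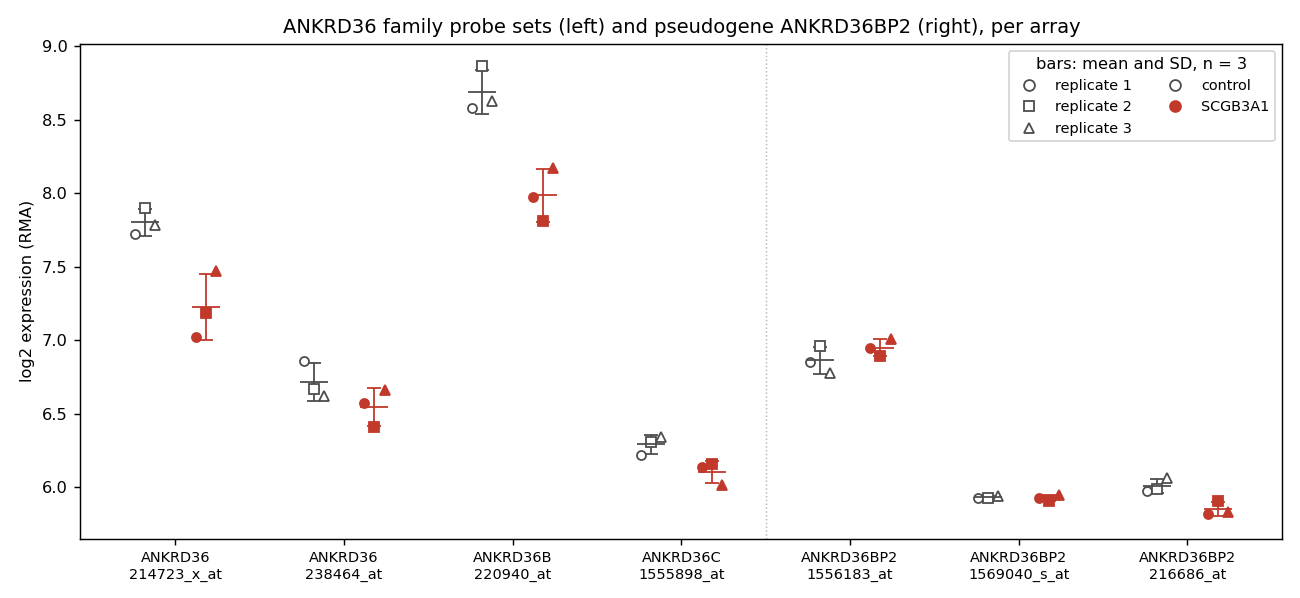
Log2 expression (vertical axis) of the 4 ANKRD36 family probe sets and of 3 probe sets for the pseudogene ANKRD36BP2 (horizontal axis), with 1 point per array, open grey for control and filled red for SCGB3A1, marker shapes for the replicates, and bars for mean and SD (n = 3). The groups of ANKRD36B and of ANKRD36 214723_x_at lie apart by 0.41 and 0.25, while those of ANKRD36 238464_at overlap.

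All 4 member probe sets had a negative difference (median -0.38), where 49.0% of all probe sets did. In 3 of the 4 the SCGB3A1 arrays lay below all 3 controls, which held for 5.25% of all probe sets. Since the contrast itself led to the family, nothing is read from these counts. The members fell into a pair with control means of 7.80 and 8.69 and differences of -0.57 and -0.70, and a pair with control means of 6.72 and 6.29 and differences of -0.17 and -0.19. With any 1 array left out, the difference ran from -0.80 to -0.62 for ANKRD36B and from -0.70 to -0.47 for ANKRD36 214723_x_at. It ran from -0.22 to -0.094 for ANKRD36 238464_at and from -0.22 to -0.14 for ANKRD36C. For the 3 members without overlap no left-out array could turn the sign, so nothing is read from the sign. Without control replicate 2, the array that stood apart, ANKRD36B read -0.62 and ANKRD36 214723_x_at -0.53.

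The arrays within a group also differed. SCGB3A1 replicate 3 was the highest array of its group, and so the nearest to control, for 3 of the 4 members, ANKRD36C being the exception. It was the highest of its group for 34.5% of all probe sets. Control replicate 2 was the highest control for ANKRD36B and ANKRD36 214723_x_at, 2 of the 4 members, and for 34.7% of all probe sets.

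**Figure D2:**
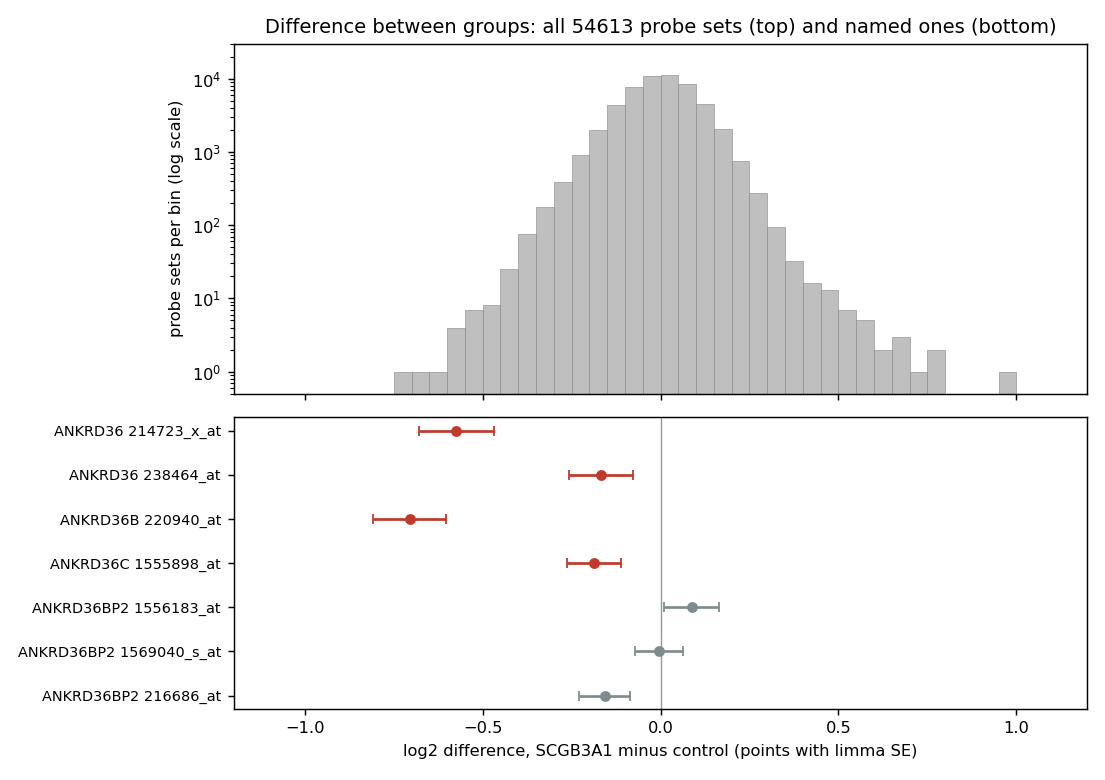
The upper panel counts all 54613 probe sets by their log2 difference, SCGB3A1 minus control (horizontal axis, bins of 0.05), on a logarithmic vertical axis. The lower panel gives the difference with its limma SE for each member (red) and each ANKRD36BP2 probe set (grey), with ANKRD36B at -0.70 on the left edge of the distribution.

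ANKRD36BP2, a transcribed pseudogene of the same family, is read by 3 probe sets. Its probe set 1556183_at read 6.85, 6.96 and 6.78 in control replicates 1 to 3 and 6.95, 6.89 and 7.01 in SCGB3A1 replicates 1 to 3, a difference of 0.087 ± 0.076 (SE) with overlapping groups. Both other probe sets lay among the lowest of the table, with control means of 5.93 and 6.01 and differences of -0.0039 ± 0.068 and -0.16 ± 0.07 (SE). The last of these, 216686_at, had groups that did not overlap. None of the 3 passed limma's adjusted p of 0.05 (0.80 or above).

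The probe sets whose levels followed ANKRD36B most closely were found by the root mean square (RMS) difference between profiles over the 6 arrays, each centred on its own mean. This measure includes the difference between the groups, so it is a description. Of all probe sets, ANKRD36 214723_x_at ranked 2nd, at an RMS difference of 0.13 on the log2 scale, while the median of all probe sets was 0.39. ANKRD36 238464_at (0.30) ranked 3045th and ANKRD36C (0.31) 3393rd.

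Ranked 1st was a probe set of NKTR, a large cyclophilin-related protein. Its probe set 202379_s_at, at an RMS difference of 0.12, read 9.81, 9.94 and 9.68 in control replicates 1 to 3 and 9.26, 9.21 and 9.32 in SCGB3A1 replicates 1 to 3, a difference of -0.54 ± 0.08 (SE). A second NKTR probe set, 215338_s_at, ranked 5th (0.14) with a difference of -0.58 ± 0.07 (SE), and it passed over all probe sets (limma adjusted p = 0.014). The remaining 6 of the 8 NKTR probe sets differed less, from -0.25 to 0.038, with overlapping groups in 4 of them, and none passed (limma adjusted p of 0.70 or above). The others named by this measure were MSH3, a DNA mismatch repair protein (0.13, difference -0.53 ± 0.10 SE), APOL6, an apolipoprotein L (0.13, -0.47 ± 0.09 SE) and ZBTB20, a zinc finger repressor of transcription (0.15, -0.43 ± 0.08 SE). In each of these 5 probe sets the groups did not overlap, and SCGB3A1 replicate 3 was the highest array of its group. SCGB3A1 arrays lay below all controls for 5.25% of all probe sets, and SCGB3A1 replicate 3 was highest for 34.5%. ANKRD36B has both traits and the 5 were picked for likeness to it, so nothing is read from them. Apart from NKTR 215338_s_at the 5 probe sets did not pass (limma adjusted p = 0.083 to 0.31). Which probe sets are nearest depends on single arrays: with 1 array left out, 2 or 3 of the 5 were kept.

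**Figure D3:**
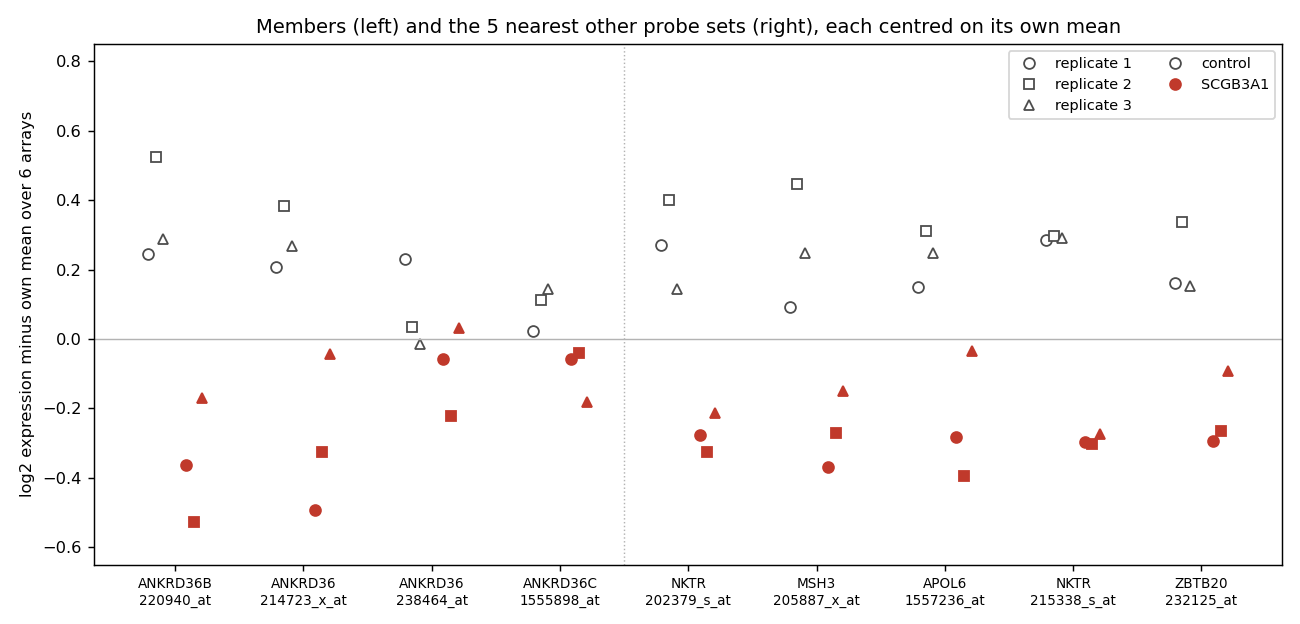
Log2 expression of each array minus the probe set's own mean over the 6 arrays (vertical axis), for the 4 members on the left and for the 5 nearest other probe sets on the right, with open grey markers for control, filled red for SCGB3A1 and shapes for the replicates. ANKRD36B, ANKRD36 214723_x_at and the 5 nearest probe sets have every control above every SCGB3A1 array, and in each of them SCGB3A1 replicate 3 is the highest of its group. The 5 were picked for likeness to ANKRD36B, which has both traits.

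Genes related to the family by sequence, by domain or by place were described from lists, with each gene given as the mean difference over its probe sets. In the 4 lists together 0 genes passed limma's adjusted p of 0.05, which 0.0183% of all probe sets did. The median over all 19775 genes was 0.0050, and 6.20% of all probe sets, or 12.1% of genes with any of their probe sets, had an unadjusted p under 0.05. Among the ankyrin repeat and coiled-coil relatives, which include ANKRD26, the POTE genes and the pseudogene ANKRD36BP2, 10 of 30 genes were measured by probe sets of their own. Their median was -0.0064, with 6 negative and 4 positive, and 1, ANKRD36BP2, had a probe set with an unadjusted p under 0.05. The genes that differed most were POTEM, of the POTE ankyrin genes (-0.092), ANKRD26, a protein found at the centriole (-0.058), and ANKRD30A, a breast differentiation antigen (0.047).

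Of other genes with ankyrin repeats, 47 of 52 were measured, with a median of -0.012, 26 negative and 21 positive. An unadjusted limma p under 0.05 was found for 2 in the upward direction, ANKRD65 and ANKRD53, and for 6 in the downward direction. These 6 were ANKRD12, ANKRD28, ANKRD29, ANK3, ANKRD13C and ANKRD10. ANKRD65 read 0.27 and ANKRD22 0.19. ANKRD12, a nuclear protein, read -0.18 over 4 probe sets that spanned -0.40 to -0.018. Among gene families that share the habit of recent duplication in the human lineage, such as NBPF, GOLGA and NPIP, 16 of 54 genes were measured, with a median of 0.0072 and 8 in each direction. An unadjusted p under 0.05 was found for a probe set of FAHD2CP (higher) and of LRRC37A3 (lower). NPIPB15 read -0.11, GOLGA8A 0.096 and NBPF3 0.079. That is 29.6% of this list, and 33.3% of the relatives were measured, so neither list stands for its whole family.

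The chromosomal neighbours were the 5 nearest genes with a probe set on each side of each member, 20 genes in all, since ANKRD36 and ANKRD36B share theirs. Their median difference was -0.0022, with 11 negative and 9 positive, and it ran from -0.31 to 0.077. The lowest value belonged to LINC00342, a long non-coding RNA gene and the nearest such neighbour before ANKRD36C. All 3 of its probe sets had a negative difference. Its probe set 1560659_at read 6.85, 7.11 and 7.09 in control replicates 1 to 3 and 6.52, 6.77 and 6.50 in SCGB3A1 replicates 1 to 3, a difference of -0.42 ± 0.10 (SE) with groups that did not overlap. The others gave -0.28 ± 0.08 without overlap and -0.22 ± 0.09 with overlap (SE). None of the 3 passed (limma adjusted p = 0.48 to 0.78). Among the neighbours, an unadjusted limma p under 0.05 was found for 1 gene downward, LINC00342, and 1 upward, FAHD2CP.

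The other neighbours differed less. ADRA2B, an adrenergic receptor, read -0.14 and DUSP2, a phosphatase that acts on MAP kinases, -0.13. FAHD2CP, a transcribed pseudogene that follows ANKRD36C, read 0.061 as the mean of 3 probe sets. Of these, 228198_s_at read 0.18 ± 0.07 (SE) with groups that did not overlap, and the others -0.026 and 0.033 with overlap. FAM178B, the nearest measured neighbour before ANKRD36, read -0.066, and COX5B, a subunit of cytochrome c oxidase that follows ANKRD36B, 0.0080. Neither of these latter 2 genes passed limma's adjusted p of 0.05.

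**Figure D4:**
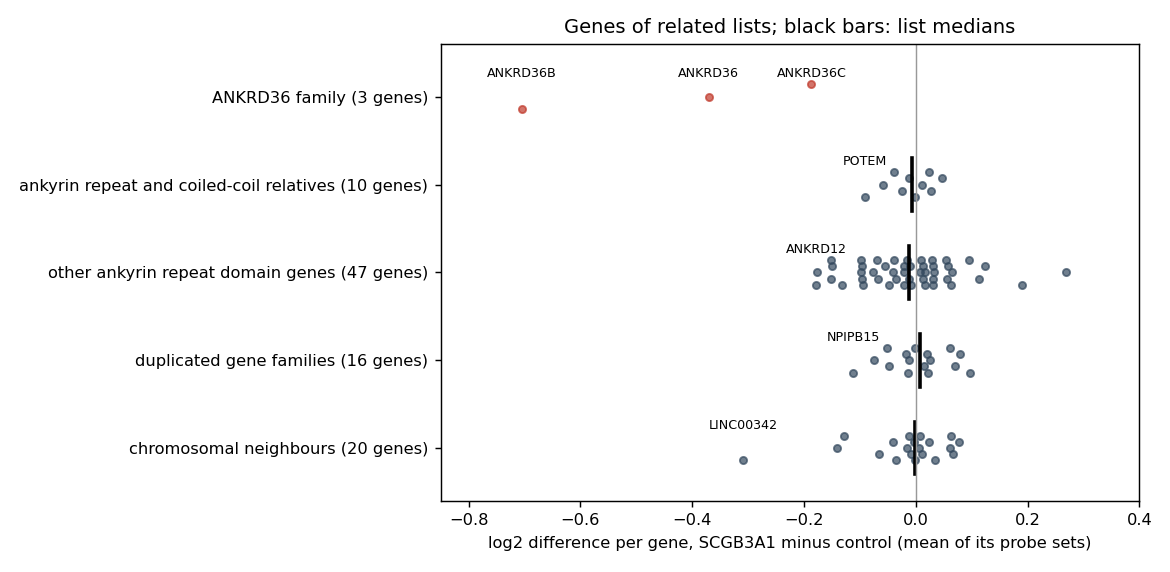
Log2 difference per gene, SCGB3A1 minus control, as the mean over its probe sets (horizontal axis), for the 3 family members (red) and the genes of the 4 related lists (dark points), with black bars for list medians. The family lies at -0.70, -0.37 and -0.19, LINC00342 lies at -0.31 among the neighbours, and the 4 list medians lie between -0.012 and 0.0072.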

How the data were processed

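Per the labels, RNA was labelled from 100 ng per sample and hybridised to 6 Affymetrix human arrays. Per the paper's methods, the authors processed the raw array files by robust multiarray average (background correction, quantile normalization, probe set summary) in Chipster, and deposited them as log2 values. Quantile normalization gives the arrays a common distribution, which hides any global change in RNA content. The number of arrays limits the precision. Gene symbols came from the platform annotation at GEO and were looked up by gene identifier in RefSeq (GRCh38.p14), where 0 had changed. Of 54675 probe sets, 62 manufacturer's controls were left out. The build behind the arrays is not given in the sources used here, so RefSeq coordinates served only to find neighbours. Sequences are from RefSeq promoters (GRCh38.p14).

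SCGB3A1 and control arrays were compared with limma 3.58.1 in R 4.3.3 (lmFit, eBayes; two-sided, Benjamini-Hochberg over all 54613 probe sets). The fit was tested on simulated data. Members, lists and the rules for named genes (3 per list with the largest differences, 5 per likeness ranking and 5 neighbours per side) were chosen with earlier results of these data known. LINC00342's separate probe sets, FAHD2CP, LRRC37A3, ANKRD53, FAM178B and COX5B were picked after their values were seen. So were ANKRD28, ANKRD29, ANK3, ANKRD13C and ANKRD10. Alternatives were other normalizations, variance models, a replicate block, filters, and each array left out.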

Additional observations from a re-analysis of the deposited data

How the results depend on the processing

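Each member's difference stayed negative in every alternative that gave a value, within -0.80 to -0.62 for ANKRD36B, whose difference chose the family. Where the groups did not overlap, leaving out 1 array could not turn the sign. The family's median difference was -0.64 without dim probe sets, where 2 members remained, and -0.19 without _x_at and _s_at probe sets, where ANKRD36 214723_x_at was left out; with 1 array left out it ran from -0.46 to -0.34. The count of members without overlap was 2 under either filter. SCGB3A1 arrays lay below all controls for 5.86% of the probe sets kept without dim ones. Without _x_at and _s_at probe sets that share was 5.17%. With 1 array left out the count was 3 or 4, and the share over all probe sets was 9.02% to 12.5%. Fewer arrays separate more easily, so nothing is read from these counts. All 4 members carry 1 symbol, so that restriction changed nothing. The median of the ankyrin repeat and coiled-coil relatives was -0.058 without dim probe sets, and with 1 array left out it ran from -0.034 to 0.017. In each of the 4 lists 0 genes passed under any alternative. The signature criteria, which set another threshold (log2 difference beyond 0.5, p under 0.05, adjusted p under 0.25), were met by 17 probe sets. The count of probe sets past adjusted p 0.05, 10 in all, was 19 with an intensity trend, 16 with array weights, 6 without dim probe sets, and 1 to 6 with 1 array left out. The causes of these changes were not tested, beyond the fewer arrays or probe sets in some of them.

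Replicate numbers are shared between the groups. Deviations of same-numbered arrays from their group means correlated at 0.15, -0.14 and -0.087, and 2 of 6 arrays correlated best with their own number. These values show no clear pairing, but 3 arrays per group are too few to exclude it. With the replicate block 4 probe sets were called, while the members' differences, which it cannot move in a balanced design, kept the median of -0.38.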
